A study of Mus musculus with 33 samples.

Results

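A set of 10 genes that mark dividing cells was followed across the mouse blood-forming hierarchy: Mki67, Top2a, Ccnb1, Ccna2, Cdk1, Plk1, Aurkb, Bub1, Ube2c and Birc5. They were chosen by name, 10 of the 56748 gene IDs in the count table, and Mki67 was already known to stand apart in common lymphoid progenitors, so its level there is described without a test. Polyadenylated RNA was sequenced from 11 mouse bone marrow populations, each with 3 libraries. Cells of the stem and progenitor compartment were depleted of lineage-positive cells and then sorted. They comprise the LT-HSC (long-term stem cells), the ST-HSC (short-term stem cells) and 5 progenitors: MPP (multipotent), CMP (common myeloid), GMP (granulocyte-macrophage), MEP (megakaryocyte-erythroid) and CLP (common lymphoid). Mature cells were stained and sorted as CD3e T cells, B220+ cells and CD11b+ cells, and for whole marrow (BM) the labels name no sort. All groups carry the same label of tissue. The series asks about epigenetic regulation of stem cell fate. No genotype, treatment, strain, age, sort gate or number of animals is given in the sources used here. Libraries of a population are not labelled as separate animals, so the p-values cover only how these libraries scatter, and that scatter may be technical.

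As background, the members act at different steps of cell division. Mki67 encodes the Ki-67 protein, which coats mitotic chromosomes and is the usual protein marker of cycling cells, and Top2a encodes the DNA topoisomerase that untangles sister chromatids. Cdk1 is the mitotic kinase, and Ccna2 and Ccnb1 are its cyclin partners. Plk1 drives centrosome maturation and entry into mitosis. Aurkb is the kinase of the chromosomal passenger complex, and Birc5 (survivin) is a subunit of it. Bub1 is a kinase of the spindle checkpoint, and Ube2c is a ubiquitin-conjugating enzyme that works with the anaphase-promoting complex to destroy cyclin B. In bone marrow, long-term stem cells are known to be mostly quiescent, and multipotent and lineage-committed progenitors to divide often. Transcription of these genes late in the cell cycle is known to be driven through CCAAT boxes, bound by NF-Y, and through cell cycle genes homology regions (CHR, most often TTTGAA), bound by the MuvB complex with B-MYB and FOXM1.

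The promoters of 4 members are printed to show these elements in the 2 members most alike in level (Cdk1 and Ube2c), and in Mki67 and the member most like it (Top2a). Each is 250 bases before to 50 bases after the transcription start on the gene's own strand, from RefSeq on GRCm38.p6, and capitals mark TTTGAA or CCAAT on either strand.
Mki67, chr7:135716330-135716629, minus strand: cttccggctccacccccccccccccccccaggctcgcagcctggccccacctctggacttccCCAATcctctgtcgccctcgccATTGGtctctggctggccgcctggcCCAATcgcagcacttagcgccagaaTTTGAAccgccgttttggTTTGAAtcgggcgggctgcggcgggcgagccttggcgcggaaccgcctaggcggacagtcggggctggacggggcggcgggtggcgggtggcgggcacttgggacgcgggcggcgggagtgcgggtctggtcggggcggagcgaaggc
Top2a, chr11:99024140-99024439, minus strand: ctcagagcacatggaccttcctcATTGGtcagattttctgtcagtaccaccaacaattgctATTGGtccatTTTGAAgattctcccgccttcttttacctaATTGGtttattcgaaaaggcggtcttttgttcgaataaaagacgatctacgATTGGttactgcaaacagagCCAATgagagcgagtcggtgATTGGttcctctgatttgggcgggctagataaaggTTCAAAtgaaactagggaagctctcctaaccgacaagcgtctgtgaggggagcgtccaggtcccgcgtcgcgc
Cdk1, chr10:69352863-69353162, minus strand: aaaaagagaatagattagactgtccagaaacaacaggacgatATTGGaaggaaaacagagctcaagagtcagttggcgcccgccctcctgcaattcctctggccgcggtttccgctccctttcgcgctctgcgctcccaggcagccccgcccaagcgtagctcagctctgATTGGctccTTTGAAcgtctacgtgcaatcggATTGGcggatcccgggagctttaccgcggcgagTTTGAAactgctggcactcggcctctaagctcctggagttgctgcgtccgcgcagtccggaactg
Ube2c, chr2:164769679-164769978, plus strand: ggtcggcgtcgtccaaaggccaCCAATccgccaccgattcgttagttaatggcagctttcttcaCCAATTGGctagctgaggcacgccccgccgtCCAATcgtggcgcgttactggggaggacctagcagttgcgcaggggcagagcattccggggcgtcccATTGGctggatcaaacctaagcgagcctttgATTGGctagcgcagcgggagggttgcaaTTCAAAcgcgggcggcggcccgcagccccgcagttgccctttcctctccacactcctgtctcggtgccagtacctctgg

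Of the 8 members in that table, TTTGAA was present in 5 (Cdk1, Mki67, Plk1, Top2a and Ube2c), against 17.9% of all 32851 promoters. CCAAT was present in 7, all but Birc5, against 37.4%. The 5 promoters with TTTGAA also held CCAAT, a combination found in 6.95% of all promoters. The second CHR form, TTCGAA, was found in Bub1 and Top2a (1.56% of all promoters). Of the E2F site forms, TTTCGCG was found in Cdk1 (0.849%), and TTTGGCGC (0.514%) and TTTCCCGC (1.07%) in no member. Both strands were searched, and no searched motif overlaps another except as CCAAT boxes overlap each other. In Mki67 the TTTGAA matches end 111 and 93 bases before the start, and in Cdk1 the nearer one ends 10 bases before it. Aurkb and Ccna2 have no entry.

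All 10 members passed the filter on low counts, with 299 to 50342 counts in each library. The largest coefficient of variation within a population was 7.48%. Library totals ran from 11997186 to 32022325 counts, and levels are CPM (counts relative to library size) with edgeR's TMM scaling. The scaling weighs in these data: mean TMM factors ran from 0.591 in GMP to 1.64 in ST-HSC. Orders of populations by level, given below, hold by TMM and were not computed with library size alone. In that scaling a population with a higher factor stands higher relative to one with a lower factor. With library size alone in place of TMM, the median log2 fold change of all genes moved by -1.15 to 0.67 between the 13 comparisons. Marker levels did not follow every label. The summed level of 6 T cell markers was 2404 to 2428 CPM in CD3e T cells, while Cd3e itself was at 0 in ST-HSC. In the same CD3e T cell libraries, 5 mature neutrophil genes summed to 6035 to 6113 CPM. There, 4 basophil and eosinophil genes summed to 6009 to 6045 CPM and 5 plasma cell genes to 3672 to 3725. The sums of the remaining marker lists were below that of the T cell markers. In BM the T cell markers summed to 94.1 to 94.6 CPM and the mature neutrophil genes to 113521 to 114556. The basophil and eosinophil genes summed there to 5283 to 5379 CPM and the plasma cell genes to 844 to 857. Lists differ in the level of their genes, so sums of different lists do not compare amounts of cells. The 4 basophil and eosinophil genes summed to 8394 to 8798 CPM in CLP and 8396 to 8671 in MPP, against 14.7 to 19.0 in CMP. Il7r, the receptor that marks CLP, was at 45.7 CPM in CLP and 42.9 in CMP. In such sorted bulk samples, fewer dividing cells and less RNA of these genes per cell cannot be told apart.

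**Figure D1:**
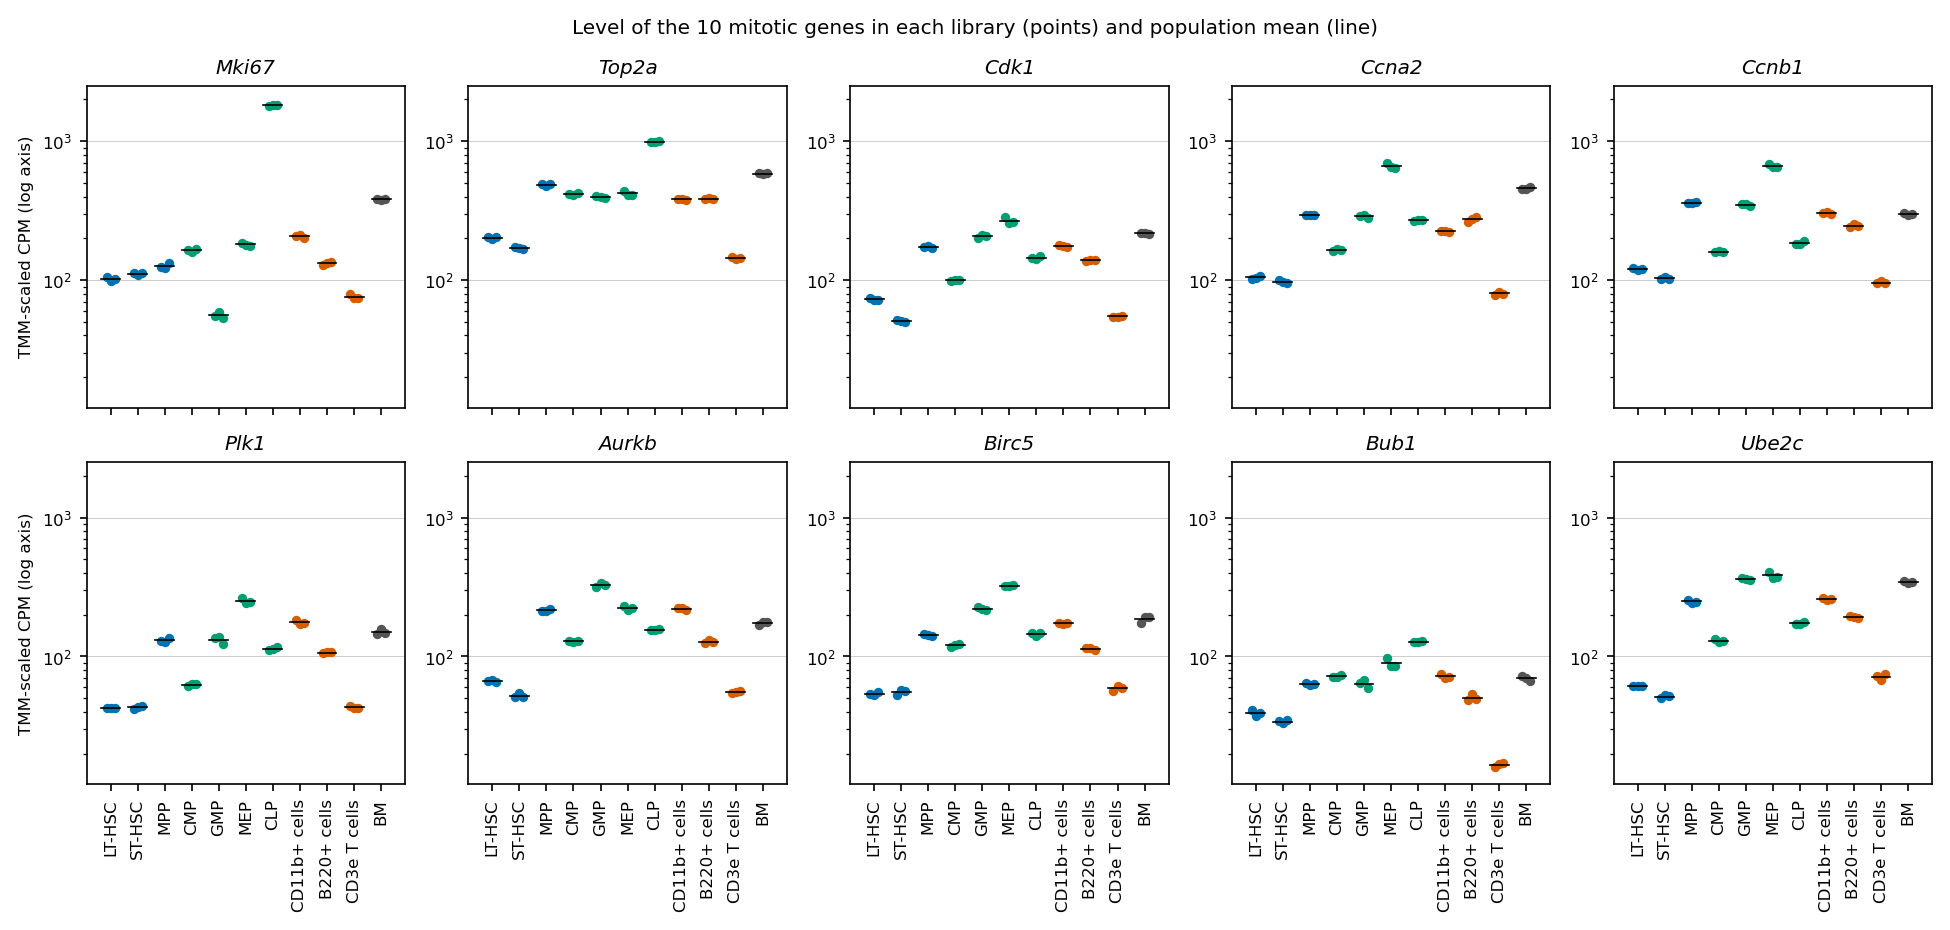
Level of each of the 10 members (TMM CPM, log axis) in the 11 populations; points are the 3 libraries and lines their mean. Mki67 lies between 1785 and 1831 CPM in CLP and at or under 385 CPM in every other library, whereas Ccnb1, Ccna2, Cdk1, Plk1, Ube2c and Birc5 are highest in MEP.

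Mki67 was by far more abundant in CLP than in any other population. Its level in the 3 CLP libraries was 1785, 1822 and 1831 CPM. Whole marrow came next, with 383, 376 and 385 CPM. The lowest level was in GMP, with 55.6, 58.9 and 53.0 CPM. CLP was thus 4.76-fold above the second population and 32.5-fold above the lowest, and these groups did not overlap. Between them lay CD11b+ cells at 207 ± 4.13 (SD, n = 3), MEP at 181 ± 3.63, CMP at 164 ± 4.35, B220+ cells at 132 ± 2.62, MPP at 126 ± 4.81, ST-HSC at 111 ± 2.49, LT-HSC at 102 ± 3.37 and CD3e T cells at 76.1 ± 3.01 CPM. Of the 10 neighbouring pairs in this order, only B220+ cells and MPP had library ranges that overlapped.

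Top2a shared the first part of that order and not the last. Its CLP libraries were at 982, 990 and 1004 CPM, those of BM at 588, 577 and 586, and those of MPP at 494, 476 and 488. The 3 populations did not overlap, and the lowest levels were in ST-HSC (170 ± 2.5) and CD3e T cells (144 ± 1.80). GMP, where Mki67 was lowest, held Top2a at 400 ± 6.50 CPM. The range from lowest to highest population was 6.88-fold for Top2a against 32.5-fold for Mki67.

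The mitotic kinase and its cyclins were highest in MEP. Ccnb1 was at 688, 652 and 655 CPM in MEP, and the next population, MPP, was at 361 ± 2.66. Ccna2 was at 693, 651 and 640 CPM in MEP and at 458 ± 6.24 in BM. Cdk1 was at 285, 257 and 261 CPM in MEP and at 217 ± 0.81 in BM. For all 3 genes the MEP libraries lay above every other library, with replicate 1 the highest of them. CLP, first for Mki67 and Top2a, was by TMM seventh for Ccnb1 (186 ± 5.62), sixth for Ccna2 (270 ± 1.35) and sixth for Cdk1 (145 ± 3.65). These ranks depend on the scaling, since the mean TMM factor was 1.24 in CLP, 0.705 in MEP and 0.726 in BM. With library size alone, Ccna2 and Cdk1 were higher in CLP than in MPP (log2 0.47 and 0.34), while Ccnb1 was still lower. Also by TMM, Ccnb1 and Ccna2 were lowest in CD3e T cells (95.9 ± 1.63 and 80.3 ± 1.97), and Cdk1 was lowest in ST-HSC (50.8 ± 0.84).

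The kinases and the passenger complex followed with small differences. Plk1 was at 262, 244 and 247 CPM in MEP, and its 3 lowest populations, ST-HSC (43.0 ± 0.88), CD3e T cells (43.0 ± 0.89) and LT-HSC (42.6 ± 0.13), overlapped in libraries. By TMM, Aurkb was the only member highest in GMP, at 319, 337 and 326 CPM. Its MEP (224 ± 8.46), CD11b+ (221 ± 3.93) and MPP (215 ± 3.62) levels overlapped from neighbour to neighbour. Birc5, its partner in the complex, was highest in MEP at 321, 323 and 327 CPM and second in GMP at 221 ± 4.84. Birc5 overlapped among CD3e T cells (59.1 ± 2.37), ST-HSC (55.9 ± 2.51) and LT-HSC (53.9 ± 1.07).

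The checkpoint kinase and the anaphase enzyme differed in their peak. Bub1 was highest in CLP at 126, 128 and 130.0 CPM, above MEP at 96.8, 85.1 and 85.3. CD11b+ cells, CMP, BM, GMP and MPP followed each other from 72 to 63.4 CPM with ranges that overlapped from neighbour to neighbour. In CD3e T cells Bub1 was at 16.1, 16.9 and 17.0 CPM, its lowest level. Ube2c was at 408, 369 and 376 CPM in MEP, 366, 360 and 356 in GMP, and 50.1, 52.5 and 51.8 in ST-HSC. No library of MEP overlapped with GMP, nor of GMP with BM (343 ± 4.01). Over all members, 6 were highest by TMM in MEP, 3 in CLP and 1 in GMP. The lowest population by TMM was CD3e T cells for 4, ST-HSC for 3, LT-HSC for 2 and GMP for 1. Mean TMM factors were 1.64 in ST-HSC, 1.62 in LT-HSC, 1.11 in CD3e T cells and 0.591 in GMP. The highest and lowest populations can therefore differ with library size alone, for which these counts were not made. Of 100 neighbouring pairs 23 overlapped. This share was not computed for all genes, so it cannot be read as a trait of the members.

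Levels of different members can be set side by side only per length. Per kb of exon, the highest member level was that of Mki67 in CLP (180 CPM per kb), that of Ccna2 in MEP (162) and that of Ube2c in GMP (139). The lowest member level per kb of exon was that of Mki67 in MEP (17.9) and in GMP (5.55), and that of Bub1 in CLP (29.4) and CD3e T cells (3.83). Mki67 went from the top to the bottom of the members between progenitors. The order depends on the length used. Per kb of the longest transcript, Top2a (190 CPM per kb) stood above Mki67 (180) in CLP, because its annotated exons sum to 9.01 kb and its longest transcript to 5.22 kb.

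**Figure D2:**
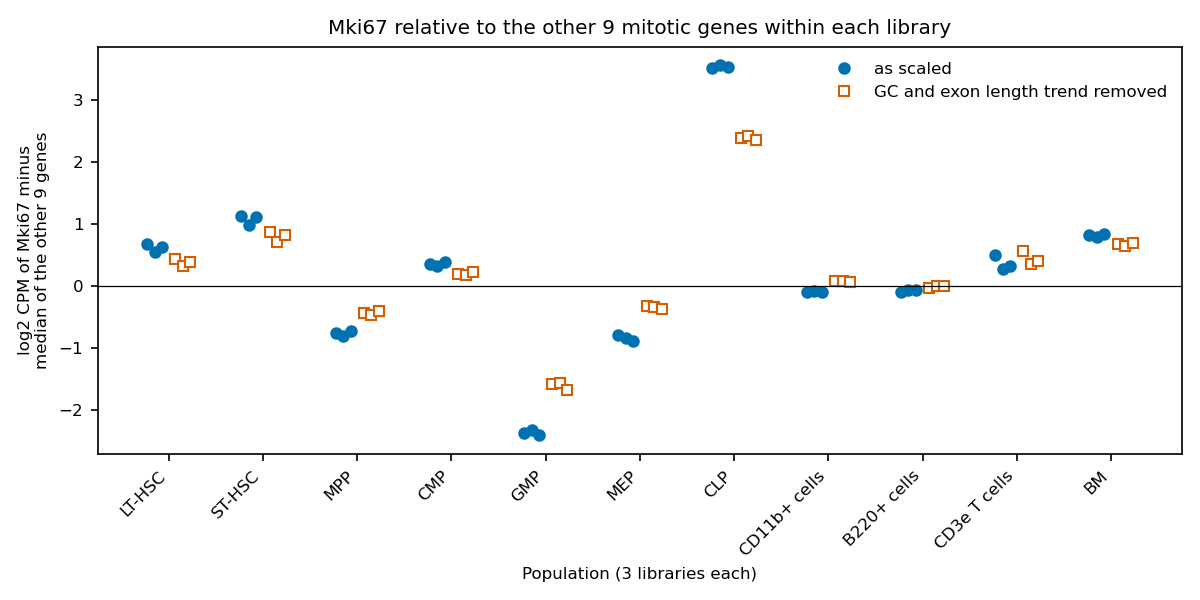
Difference between the log2 CPM of Mki67 and the median log2 CPM of the other 9 members in each of the 33 libraries; filled points are as scaled and open squares have each library's trend on GC content and exon length taken out. The CLP libraries lie at 3.52 to 3.56 as scaled, and GMP lies lowest, at a mean of -2.37.

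Within a library the difference between Mki67 and the median of the other 9 members does not depend on the scaling between libraries. This log2 difference was 3.52, 3.56 and 3.53 in the CLP libraries. It was 1.08 ± 0.081 in ST-HSC, 0.81 ± 0.022 in BM and 0.62 ± 0.067 in LT-HSC, and it was -0.77 in MPP, -0.84 in MEP and -2.37 ± 0.039 in GMP. The remaining populations, CMP, CD3e T cells, B220+ cells and CD11b+ cells, lay between -0.10 and 0.37. The CLP mean stood 3.63 above the mean of the other 10 populations, and 3.62 to 3.64 without any 1 of the CLP libraries. In the same measure Top2a stood 1.35 and Bub1 1.12 above their other populations in CLP, and the remaining 7 members stood between -0.52 and 0.09. These values are a description, since CLP was named for Mki67 when the genes were chosen.

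Exon length moved with these values. Over all tested genes, the median log2 difference of CLP from the other 10 populations was -0.53 for the 2572 genes with under 1 kb of exon and 0.94 for the 2610 genes with 8 kb or more. In GMP the same medians were -0.38 and -0.84, and in CMP -0.04 and 0.01. Mki67 (10.1 kb) and Top2a (9.01 kb) are the only members in the longest class, and the other 8 have 2.20 to 4.93 kb. Against the other 10 populations, Mki67 in CLP was 3.76 higher on the log2 scale, a value larger than that of 98.4% of the genes. The upper quartile of the longest class was 1.92. Mki67 was named for CLP beforehand, so its place among the genes is a description. Top2a was 1.59 higher (above 82.7% of the genes) and Bub1, with 4.35 kb, 1.30 higher (above 78.6%). With each library's trend on GC content and exon length taken out, these 3 values were 2.63 for Mki67, 0.61 for Top2a and 1.15 for Bub1. The corresponding difference of Mki67 in GMP went from -1.77 to -0.92. Apart from this correction, the part of length in the member levels was not tested.

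**Figure D3:**
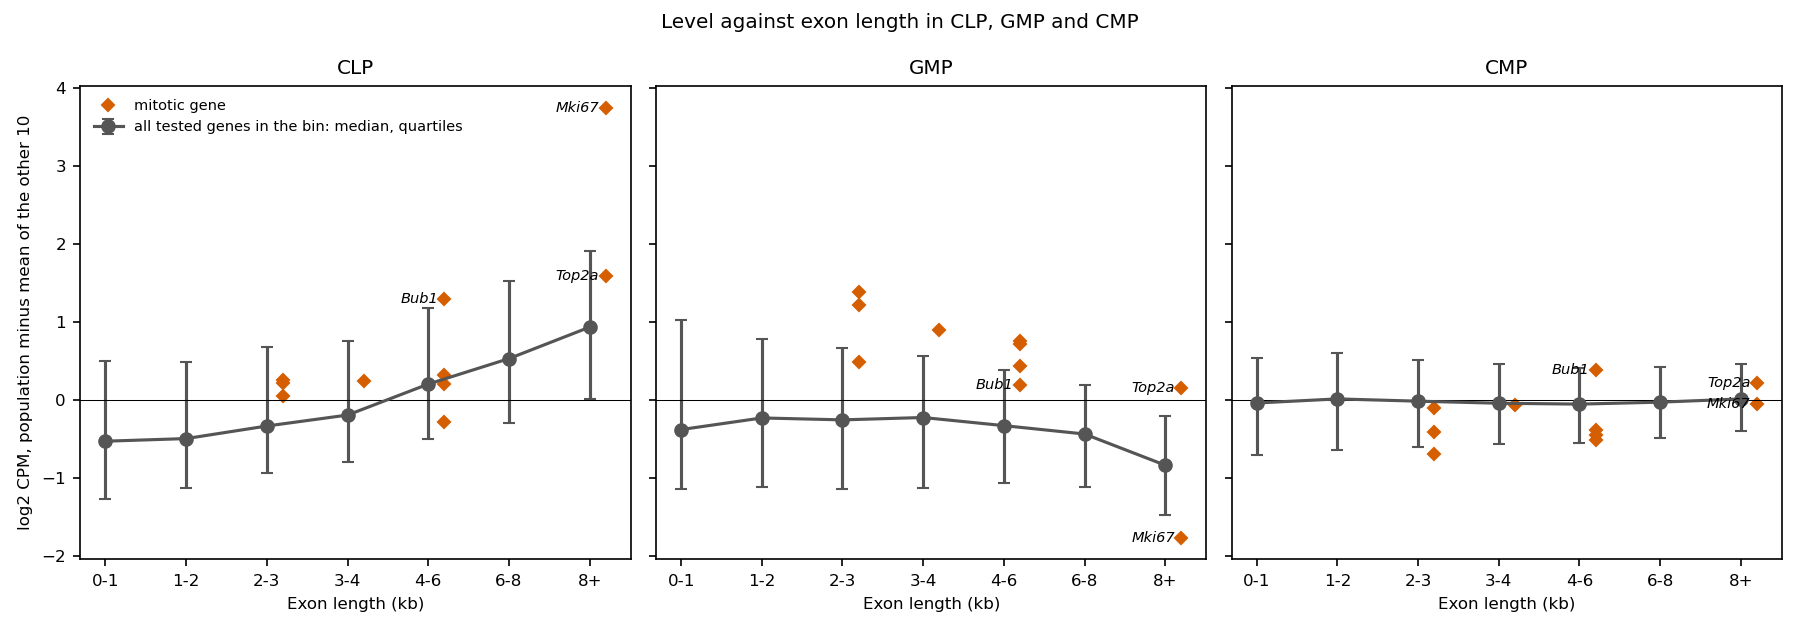
Median (line) and quartiles (bars) of the log2 difference between a population and the other 10, for all tested genes grouped by exon length in kb, in CLP, GMP and CMP. Members are diamonds beside the length group they fall in. In CLP the median runs from -0.53 under 1 kb to 0.94 at 8 kb or more, and Mki67 lies at 3.76.

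The first comparison follows the stem cell pool, ST-HSC against LT-HSC. Most members were slightly less abundant in ST-HSC, by at most 1.43-fold. In all, 7 were lower (34.1% of all tested genes were lower), 1 was higher (29.8% were higher), and Plk1 and Birc5 did not pass the threshold of 0.05. Cdk1 fell by 0.52 on the log2 scale, from 72.6 ± 1.13 to 50.8 ± 0.84 CPM (SE 0.034, edgeR adjusted p = 1.94e-27). Aurkb fell by 0.35, from 66.6 to 52.2 CPM (SE 0.034, edgeR adjusted p = 2.10e-16). Mki67 was the member that was higher, 1.08-fold (log2 0.12, edgeR adjusted p = 0.000391). The median log2 fold change was -0.21 for the members and -0.01 for all genes. Stromal genes also differed: 5 of them summed to 3168 to 3178 CPM in LT-HSC and 193 to 197 in ST-HSC. Their part in these values was not tested.

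From ST-HSC to MPP the members rose together. All 10 were higher in MPP (33.6% of all genes were higher), and 8 by 2-fold or more (14.7%). With library size alone 8 were higher and 2 were lower, Bub1 (-0.089) and Mki67 (-0.80), and of all genes that passed 13% were higher, against 45.7% by TMM. Only Ube2c (1.28) and Aurkb (1.05) were then past 2-fold, and the other 6 members that were higher lay between 0.35 and 0.81. By TMM, Ube2c was 4.83-fold higher, at 255, 243 and 248 CPM against 50.1, 52.5 and 51.8 (log2 2.27, SE 0.033, edgeR adjusted p = 3.47e-91). Aurkb was 4.12-fold higher, at 212, 214 and 219 CPM against 50.9, 54.7 and 51.1 (log2 2.04, SE 0.032, edgeR adjusted p = 3.34e-87). The libraries of the groups lay far apart for both. Ccnb1 (1.80), Cdk1 (1.76), Plk1 (1.61), Ccna2 (1.60), Top2a (1.51) and Birc5 (1.35) had log2 fold changes in a narrow band. Bub1 was 1.87-fold higher (log2 0.90, edgeR adjusted p = 1.37e-37). Mki67 was 1.14-fold higher (log2 0.19, SE 0.033, edgeR adjusted p = 1.40e-07), and 0.87 with the GC and length trend taken out, where Top2a was 2.19. The median over the members was 1.60, against -0.11 over all genes. Neutrophil precursor genes moved with this step: 6 of them summed to 37421 to 38195 CPM in MPP and 275 to 286 in ST-HSC, and their part in the result was not tested.

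From MPP the hierarchy branches to CMP and CLP, and these comparisons share the MPP libraries. In CMP, 8 members were lower (35% of all genes) and 2, Mki67 (log2 0.37) and Bub1 (0.18), were higher (35%). Those last were -0.11 and -0.095 with the GC and length trend taken out. Under library-size scaling, 4 were higher and 6 lower, Birc5 (0.44) and Top2a (0.46) turning. Of all genes that passed, 80.8% were then higher, against 49.97% by TMM. Ccnb1 was 2.25-fold lower, at 160, 161 and 161 CPM against 362, 358 and 363 (log2 -1.17, SE 0.027, edgeR adjusted p = 7.36e-70). Plk1 was 2.09-fold lower, at 61.6, 62.9 and 63.3 CPM against 128, 128 and 137 (log2 -1.07, SE 0.036, edgeR adjusted p = 3.96e-53). These were the only members lower by 2-fold or more (15.4% of all genes), and the groups did not overlap. With library size alone they were -0.49 and -0.38 and no member was lower by 2-fold, and with the trend taken out 4 were. The median was -0.77 for the members and 0.01 for all genes. The 6 neutrophil precursor genes summed to 1389 to 1407 CPM in CMP and 37421 to 38195 in MPP. For 5 plasma cell genes the sums were 278 to 283 and 7848 to 8071 CPM, and the part of these markers was not tested.

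In CLP against MPP the members split. Of the 9 tested, 2 were higher (39.6% of all genes), 6 were lower (37.4%) and Birc5 did not pass (log2 0.03, edgeR adjusted p = 0.412). Top2a was 2.04-fold higher (log2 1.03, SE 0.024, edgeR adjusted p = 3.50e-70) and was -0.23 with the GC and length trend taken out. Bub1 was 2.02-fold higher, at 126, 128 and 130.0 CPM against 64.6, 61.9 and 63.7 (log2 1.01, SE 0.039, edgeR adjusted p = 2.85e-48). These 2 were higher by 2-fold or more (28.1% of all genes), but only 1 was without MPP replicate 2, and neither with the trend taken out or in a fit of CLP and MPP alone. Ccnb1 was 1.93-fold lower, at 183, 183 and 193 CPM against 362, 358 and 363 (log2 -0.95, edgeR adjusted p = 4.99e-61). Ube2c (-0.52), Aurkb (-0.47), Cdk1 (-0.25), Plk1 (-0.20) and Ccna2 (-0.12) were also lower. Scaled by library size alone, these 5 turned to 0.070, 0.12, 0.34, 0.39 and 0.47, with 8 members higher and Ccnb1 lower. Plk1 was also 0.016 with the trend taken out. Of all genes that passed, 68.6% were higher with library size alone, against 51.4% by TMM. Mki67, described without a test, had a log2 fold change of 3.84, or 14.3-fold. The summed basophil and eosinophil markers were alike in these populations, as given above, but other marker lists were not. The 6 neutrophil precursor genes summed to 2093 to 2171 CPM in CLP and 37421 to 38195 in MPP. For 5 plasma cell genes the sums were 186 to 203 and 7848 to 8071 CPM. The 8 erythroblast markers summed to 1344 to 1393 CPM in CLP and 408 to 411 in MPP, and 5 stromal genes to 1937 to 2043 and 137 to 147. Their part in these values was not tested.

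**Figure D4:**
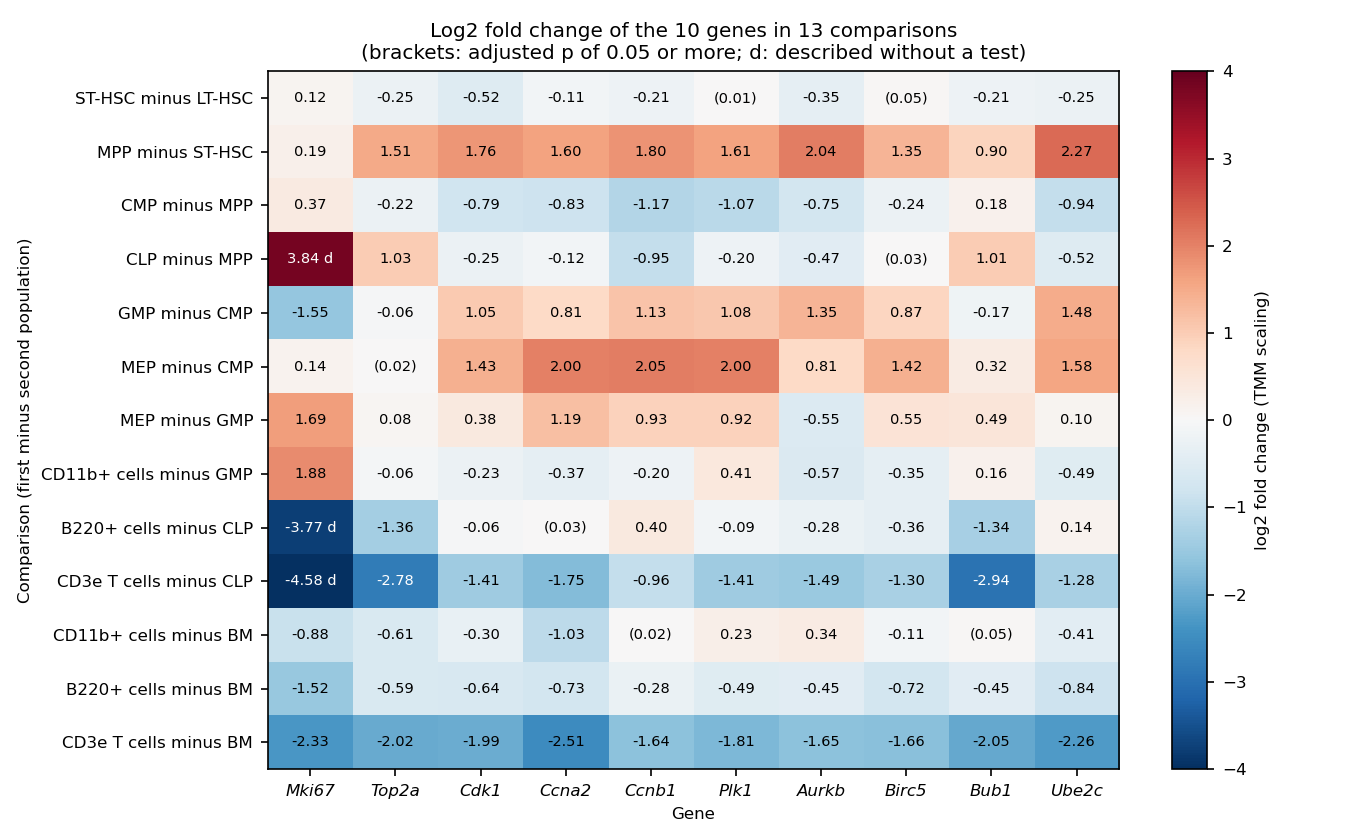
Log2 fold change (color scale) of the 10 members in 13 comparisons from the edgeR fit with TMM scaling; brackets mark adjusted p of 0.05 or more, and d marks Mki67 where CLP is compared, described without a test. The MPP minus ST-HSC row is positive for all 10 members, although Bub1 and Mki67 are negative in that comparison with library size alone, and the CD3e T cells minus BM row is negative for all 10.

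From CMP the myeloid branches GMP and MEP were compared, each against the same CMP libraries. In GMP 7 members were higher (31.8% of all genes), 5 by 2-fold or more (15.8%), and 3 were lower (41.9%). Ube2c was 2.79-fold higher, at 366, 360 and 356 CPM against 133, 127 and 129 (log2 1.48, edgeR adjusted p = 7.17e-77). Aurkb was 2.56-fold higher, at 319, 337 and 326 CPM against 129, 127 and 128 (log2 1.35, edgeR adjusted p = 5.49e-74). Ccnb1 (1.13), Plk1 (1.08), Cdk1 (1.05), Birc5 (0.87) and Ccna2 (0.81) were higher by TMM. Scaled by library size alone, these 5 were -0.045, -0.091, -0.12, -0.30 and -0.36, and 2 members were higher and 8 lower. Ube2c and Aurkb were then at 0.31 and 0.18, so that no member was higher by 2-fold. Of all genes that passed, 11.7% were then higher, against 43.2% by TMM. Mki67 was lower under each scaling and with the trend taken out. It was 2.92-fold lower, at 55.6, 58.9 and 53.0 CPM against 164, 160 and 169, the only member past 2-fold in this direction (27.9% of all genes) (log2 -1.55, SE 0.039, edgeR adjusted p = 3.55e-66). With the trend taken out it was -0.68, and no member was lower by 2-fold. Top2a (-0.06, edgeR adjusted p = 0.0357) and Bub1 (-0.17, edgeR adjusted p = 0.000298) were slightly lower, and were 0.83 and 0.23 with the trend taken out. Without CMP replicate 3, Top2a no longer passed. The 6 neutrophil precursor genes summed to 101138 to 105518 CPM in GMP and 1389 to 1407 in CMP, and their part in these values was not tested.

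In MEP against CMP, 9 members were higher (34.1% of all genes), 6 by 2-fold or more (18.9%), and Top2a did not pass (log2 0.02, edgeR adjusted p = 0.454). The value of Top2a depended on the scaling, at -0.017 with RLE factors, -0.90 with library size alone and 0.50 with the trend taken out, and the last 2 of these passed. Ccnb1 was 4.15-fold higher (log2 2.05, SE 0.026, edgeR adjusted p = 4.65e-98), and Ccna2 (log2 2.0, edgeR adjusted p = 3.20e-95) and Plk1 (log2 2.0, edgeR adjusted p = 2.87e-86) were each 4.01-fold higher. The MEP libraries of these genes lay above all CMP libraries. Ube2c (1.58), Cdk1 (1.43) and Birc5 (1.42) followed, and Aurkb (0.81), Bub1 (0.32) and Mki67 (0.14) were higher by TMM but -0.11, -0.60 and -0.78 with library size alone. In that scaling 3 members were past 2-fold, with Ccnb1 at 1.14, Ccna2 and Plk1 at 1.09, Ube2c at 0.66, and Cdk1 and Birc5 at 0.51. Of all genes that passed, 20.05% were then higher, against 43.5% by TMM. The members' median was 1.42, against -0.25 over all genes. The 8 erythroblast markers, among them Klf1 and Gata1, summed to 3628 to 3857 CPM in MEP and 467 to 475 in CMP, and their part in the result was not tested.

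Set directly against GMP, MEP had 9 members higher (31.3% of all genes) and Aurkb lower (31.1%). Aurkb was 1.46-fold lower, at 232, 215 and 224 CPM against 319, 337 and 326 (log2 -0.55, edgeR adjusted p = 6.01e-36). Mki67 was 3.22-fold higher, at 184, 180 and 177 CPM against 55.6, 58.9 and 53.0 (log2 1.69, edgeR adjusted p = 2.11e-68). Ccna2 was 2.29-fold higher (log2 1.19, edgeR adjusted p = 1.93e-70). Mki67 and Ccna2 were the members higher by 2-fold or more (14.2% of all genes), a count of 4 with library size alone. Top2a (0.08) and Ube2c (0.10) passed, but neither did so without MEP replicate 1, and Top2a was -0.33 with the trend taken out. The median was 0.52 over the members and 0 over all genes.

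The mature fractions were compared with the progenitor named for their lineage and with whole marrow. In CD11b+ cells against GMP, 3 members were higher (41.3% of all genes) and 7 lower (32.8%). Mki67 was 3.68-fold higher, at 208, 210 and 202 CPM (log2 1.88, SE 0.040, edgeR adjusted p = 1.30e-74), the only member past 2-fold (30.9% of all genes were higher by that much), and it was 1.12 with the trend taken out. Aurkb was lower by 0.57 on the log2 scale (edgeR adjusted p = 1.12e-37), Ube2c had a log2 fold change of -0.49, and Plk1 was higher, at 0.41. Ccnb1 (-0.20) and Cdk1 (-0.23) were 0.10 and 0.073 with library size alone. Bub1 (0.16) was -0.14 with the trend taken out. Top2a (-0.06, edgeR adjusted p = 0.0246) was 0.23 with library size alone and lost its call without any 1 of the 6 libraries. CD11b+ cells held 12886 to 13086 CPM of the neutrophil precursor genes and 95969 to 98556 CPM of 5 mature neutrophil genes.

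In B220+ cells against CLP, 2 of the 9 tested members were higher (39.5% of all genes) and 6 lower (42.5%). Top2a was 2.57-fold lower, at 385, 391 and 384 CPM against 982, 990 and 1004 (log2 -1.36, edgeR adjusted p = 1.61e-83). Bub1 was 2.53-fold lower (log2 -1.34, edgeR adjusted p = 8.90e-63), and these were the only members lower by 2-fold (30.6% of all genes). With the trend taken out Top2a was -0.39 and no longer past 2-fold. Ccnb1 was 1.32-fold higher, at 242, 253 and 245 CPM against 183, 183 and 193 (log2 0.40, edgeR adjusted p = 4.51e-28). Ube2c (0.14) was higher by TMM and -0.017 with the trend taken out. Ccna2 did not pass (0.03), but it passed as higher with RLE factors (0.056), DESeq2 (0.057), no filter (0.098), the 2 populations alone (0.12), the trend taken out (0.17) and B220+ replicate 1 left out (0.067), and as lower with library size alone (-0.099). Cdk1 (-0.06, edgeR adjusted p = 0.0493) was 0.31 with the trend taken out and lost its call without 5 of the 6 libraries in turn, as Plk1 (-0.09) did without 2 of them. Mki67, described without a test, was 13.7-fold lower. The 6 genes of cycling B cell precursors summed to 5629 to 5697 CPM in B220+ cells and 19.5 to 22.0 in CLP, and their part was not tested.

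CD3e T cells had the lowest geometric mean level of the 9 members other than Mki67, at 60.1 CPM, next to 64.4 in ST-HSC. Against CLP all 9 tested members were lower (41.7% of all genes), 8 of them by 2-fold or more (29.8%). Bub1 was 7.67-fold lower, at 16.1, 16.9 and 17.0 CPM against 126, 128 and 130.0 (log2 -2.94, edgeR adjusted p = 2.47e-87). Top2a was 6.88-fold lower, at 146, 143 and 143 CPM (log2 -2.78, edgeR adjusted p = 2.54e-111). The least change was that of Ccnb1, 1.94-fold (log2 -0.96). Mki67, described without a test, was 23.9-fold lower. Against whole marrow all 10 members were lower (36.8% of all genes), and all 10 by 2-fold or more (22.1%). Ccna2 was 5.70-fold lower, at 78.7, 82.5 and 79.6 CPM against 455, 454 and 465 (log2 -2.51, edgeR adjusted p = 6.03e-98). Mki67 was 5.02-fold lower, at 79.6, 74.0 and 74.8 CPM against 383, 376 and 385 (log2 -2.33, edgeR adjusted p = 2.22e-93). Ube2c was 4.8-fold lower (log2 -2.26, edgeR adjusted p = 7.59e-91). In both comparisons with CD3e T cells the members' directions were the same under TMM, relative log expression and library size scaling and with the trend taken out. With library size alone the log2 fold changes against BM were -1.90 for Ccna2, -1.72 for Mki67 and -1.65 for Ube2c, and with the trend taken out that of Top2a against CLP was -1.74. Of all genes that passed against BM, 71.6% were higher with library size alone and 49.1% by TMM. The median was -2.00 over the members and -0.04 over all genes. Neutrophil, basophil and plasma cell markers in CD3e T cells are given above, and their part was not tested.

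B220+ cells and CD11b+ cells stood closer to whole marrow, which contains them. In B220+ cells all 10 members were lower (35.7% of all genes), and only Mki67 was by 2-fold or more (23%). Mki67, which was -0.88 with library size alone, was 2.87-fold lower by TMM, at 129, 133 and 135 CPM against 383, 376 and 385 (log2 -1.52, edgeR adjusted p = 5.06e-78). Under library-size scaling 5 members were higher and 4 lower. Aurkb (-0.45) was then 0.20, Bub1 (-0.45) 0.19, Ccnb1 (-0.28) 0.37, Plk1 (-0.49) 0.15, Top2a (-0.59) 0.052 and Cdk1 (-0.64) 0.0062. Of all genes that passed, 71.6% were then higher, against 50.4% by TMM. In CD11b+ cells 6 members were lower (35.4% of all genes) and 2 higher (32.6%). Ccna2 was 2.04-fold lower, at 226, 226 and 221 CPM against 455, 454 and 465 (log2 -1.03, edgeR adjusted p = 6.92e-62), the only member past 2-fold (21.8%). Aurkb (0.34) and Plk1 (0.23) were higher by TMM. With the trend taken out no member was higher, Plk1 being at -0.15 and Aurkb at 0.03 (edgeR adjusted p = 0.418).

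**Figure D5:**
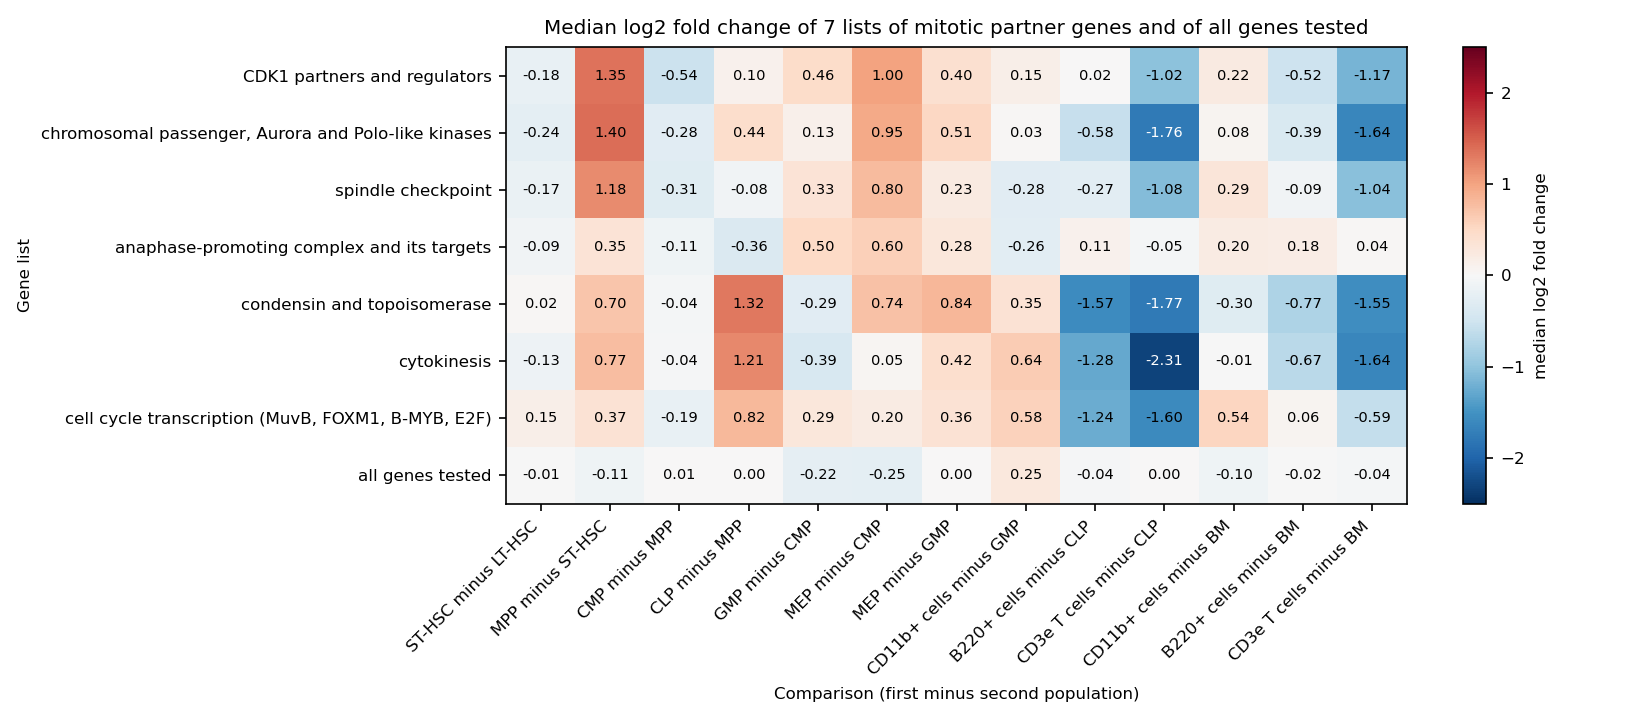
Median log2 fold change (color scale) of 7 lists of genes that work with the members, and of all tested genes, in 13 comparisons by TMM scaling. In the MPP minus ST-HSC column the chromosomal passenger and Aurora list is at 1.40 and all genes at -0.11.

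The genes that work with the members were grouped in 7 lists of 65 genes, of which 64 were tested. From ST-HSC to MPP, 54 of the 64 were higher by TMM and 6 lower (33.6% and 40% of all genes), but 24 were higher and 35 lower with library size alone. The list of the chromosomal passenger complex with Aurora and Polo-like kinases had 7 of 7 higher (median 1.40), the spindle checkpoint 6 of 6 (1.18), and the CDK1 partners and regulators 8 of 9 (1.35). With library size alone these medians were 0.41, 0.19 and 0.36. The lists with the smallest medians were the anaphase-promoting complex, with 11 of 15 higher (0.35), and cell cycle transcription, with 7 of 11 higher and 4 lower (0.37). Under library-size scaling they had medians of -0.64 and -0.62. Cks2, a small CDK-binding subunit, was at 351 ± 13 CPM in MPP and 103 ± 3.29 in ST-HSC (log2 1.77, edgeR adjusted p = 1.68e-75). Cdc20, an activator of the anaphase-promoting complex, was at 287 ± 8.69 and 85.0 ± 3.42 CPM (log2 1.76, edgeR adjusted p = 1.06e-63). Mybl2, the B-MYB gene, was at 67.9 ± 2.01 and 17.5 ± 0.46 CPM (log2 1.96, edgeR adjusted p = 2.61e-67). Cdc25a, a phosphatase that activates CDKs, was lower in MPP by TMM (log2 -0.31, edgeR adjusted p = 1.54e-05) and 0.26 with the GC and length trend taken out.

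In CLP against MPP, 41 of the 64 were higher and 22 lower by TMM (39.6% and 37.4% of all genes), with 29 higher and 32 lower once the GC and length trend was taken out. Cytokinesis genes were higher in 7 of 7 (median 1.21), and condensin and topoisomerase genes in 8 of 9 (1.32), and these medians were 0.05 and 0.22 with the trend taken out. The anaphase-promoting complex list had 6 higher and 9 lower (median -0.36, but 0.22 with library size alone). Ube2s, which extends ubiquitin chains on targets of that complex, was nevertheless at 155 ± 8.70 CPM in CLP against 9.24 ± 0.20 in MPP (log2 4.08, edgeR adjusted p = 1.47e-94). Foxm1, the transcription factor of late cell cycle genes, was at 204 ± 5.74 against 20.3 ± 0.30 CPM (log2 3.34, edgeR adjusted p = 5.16e-95). Cit, a kinase of cytokinesis, was at 149 ± 2.65 against 18.3 ± 1.46 CPM (log2 3.03, edgeR adjusted p = 2.68e-87). Cdc25a was at 94.8 ± 3.59 against 15.3 ± 1.15 CPM (log2 2.62, edgeR adjusted p = 3.48e-77). With the trend taken out the log2 fold changes of these 4 were 3.5 for Ube2s, 2.43 for Foxm1, 1.14 for Cit and 1.46 for Cdc25a. Cks1b had a log2 fold change of -1.58 and Cdc20 of -0.99, at 145 ± 5.47 against 287 ± 8.69 CPM. Both were lower under each scaling tried.

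In MEP against CMP, 52 of the 64 were higher and 6 lower by TMM (34.1% and 44.3% of all genes), and 18 higher and 40 lower with library size alone. Cks2 was at 899 ± 47.7 CPM in MEP against 229 ± 2.49 in CMP (log2 1.97, edgeR adjusted p = 3.28e-85). Mybl2 was at 169 ± 6.46 against 20.4 ± 1.28 CPM (log2 3.04, edgeR adjusted p = 9.34e-96). E2f4, a transcription factor that pairs with the RB-like proteins and was chosen after its values were seen, was at 374 ± 2.41 against 46.3 ± 0.29 CPM (log2 3.01, edgeR adjusted p = 4.64e-107). These 3 kept their direction with library size alone, at log2 fold changes of 1.06, 2.13 and 2.10. Kif23, a kinesin of the central spindle, was lower (log2 -1.48, edgeR adjusted p = 6.08e-64), and so was Cdc25b (-1.30, edgeR adjusted p = 4.30e-38). In GMP against the same CMP libraries, 38 were higher and 22 lower by TMM (31.8% and 41.9% of all genes) and 9 higher and 53 lower with library size alone, with Cit at -1.48 and Mybl2 at 2.11. In CD3e T cells against BM, 49 of the 64 were lower and 10 higher by TMM (36.8% and 35.5% of all genes), and 40 lower and 22 higher with library size alone. All 9 CDK1 partners, 7 passenger and Aurora genes, 6 checkpoint genes and 7 cytokinesis genes were lower, while the anaphase-promoting complex list had 6 higher and 5 lower (median 0.04). Scaled by library size alone, 1 of the CDK1 partners and 2 of the checkpoint genes were higher instead, and the anaphase-promoting complex list had 11 higher and 4 lower. With the trend taken out its median was -0.060.

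Over the 11 population means, the Pearson correlation of log2 levels ran from 0.593 to 0.982 over the 36 pairs of members other than Mki67, with a median of 0.922. The closest pair was Cdk1 and Ube2c. Top2a and Bub1, which also had their highest level in CLP, were close to each other (0.918), while Top2a had its lowest correlation with Ccnb1 (0.593), as had Bub1 (0.655). The 9 pairs with Mki67 ran from 0.106 (Ccnb1) to 0.748 (Top2a), with a median of 0.294. Without CLP, over 10 populations, these ran from 0.221 (Aurkb) to 0.569 (Top2a). The genes most like Mki67 were Kntc1 (0.985), Aspm (0.974), Clspn (0.973), Tmem131 (0.969) and Arid2 (0.969). Their exons sum to 7.19 to 11.6 kb, against a median of 3.47 kb over the tested genes. Those most like the mean of the other 9 members were Kif20a (0.976), Cdca3 (0.976), Kif22 (0.975), Tacc3 (0.966) and Cdca8 (0.965), with 2.87 to 5.18 kb. Points share libraries, depth and scaling within a population, and these correlations are a description without a test.

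Reads of some members could come from a neighbour, since use of strand in the counting is not given in the sources used here. Of the exon bases of Ube2c, 22.8% overlap Tnnc2 on the opposite strand, which held 4 counts over all libraries against 119098 of Ube2c. Ccna2 overlaps Exosc9 over 12.5% of its exon bases, with 24937 against 159080 counts, so a share of either count may belong to the other gene. Plk1 overlaps Gm44985 over 7.09% (146 against 68187 counts), and the pseudogene Ccnb1-ps held 165 counts against 157348 of Ccnb1.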

How the data were processed

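RNA counts per gene from 33 libraries were used as deposited by the authors. The submitters' processing notes name cutadapt, HISAT2, HTSeq, DESeq2 and mm39 as the build. Strandedness, tool versions and the annotation release are not given in the sources used here. Symbols, exon lengths and GC content came from GENCODE M21 on GRCm38 (52073 of 56748 IDs matched), and promoters from RefSeq on GRCm38.p6. Columns were matched to samples by name.

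The 10 members and all gene lists were chosen with earlier results of these data known. Counts were filtered by group (filterByExpr, 20464 genes), scaled by TMM (the trimmed mean of M-values) and tested with edgeR 4.0.16 (R 4.3.3). Its robust quasi-likelihood fit gave each population its own mean and left 22 residual degrees of freedom, at a common biological coefficient of variation of 2.67%, so small changes passed. P-values were adjusted by Benjamini-Hochberg over all tested genes, with a threshold of 0.05, and fold counts use an estimated fold of 2. Log2 CPM used a prior count of 2. Shares of all genes called are given beside member counts. All members are named. Of each partner list, the largest rise, the largest fall and the best expressed gene of a comparison could be named, and so could the 5 genes most correlated with Mki67 and with the mean of the other 9 members, at 10 CPM or more in a population.

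Alternatives were relative log expression (RLE) factors, no filter, scaling by library size alone, DESeq2 1.42.0, leaving out each library, fits to only the populations of a comparison, replicate number as a block, and removal from each library of its trend on GC content and exon length (splines of 5 degrees of freedom, both properties known for 96.5% of the genes). That trend was fitted on genes with a mean log2 CPM of at least 2, a minimum set after the data were seen, and a fit with dispersion estimated first was also added then. Replicate pairs had a chi-square per gene of 1.15 to 3.73 (5 of 33 pairs over 2), so none was treated as an identical copy of another. The lowest values are near that of counting noise alone, so this check could not tell a library sequenced again from a separate one. In a simulated CMP minus MPP comparison over 19810 genes with 50 changed at each fold, edgeR recovered 38%, 76%, 94% and 100% of genes changed 1.2-fold, 1.5-fold, 2-fold and 4-fold and called 0.0357% of unchanged genes. Trend removal took a planted Spearman correlation of 0.733 with length to -0.0104.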

Additional observations from a re-analysis of the deposited data

How the results depend on the processing

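Over the 13 comparisons, 130 member log2 fold changes were recomputed under each setting. Direction and call stayed the same for 124 with RLE factors, 124 with DESeq2, 125 with no filter, 129 with dispersion estimated first, 118 with only the populations compared, 110 with the GC and length trend removed, 95 with library size alone, and 761 of 780 with a library left out. Mki67 has no call in comparisons with CLP. There it counted as the same only if its value moved by no more than the combined library SD. Larger moves kept their direction but are not in these counts. The cause of the changes was not tested, other than that library size alone moves all genes of a comparison together.

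Under library-size scaling, the log2 fold changes that turned were, for B220+ cells minus BM, 0.20 (Aurkb), 0.19 (Bub1), 0.37 (Ccnb1), 0.0062 (Cdk1), 0.15 (Plk1) and 0.052 (Top2a). For CLP minus MPP they were 0.12 (Aurkb), 0.47 (Ccna2), 0.34 (Cdk1), 0.39 (Plk1) and 0.070 (Ube2c). For GMP minus CMP they were -0.30 (Birc5), -0.36 (Ccna2), -0.045 (Ccnb1), -0.12 (Cdk1) and -0.091 (Plk1). For MEP minus CMP they were -0.11 (Aurkb), -0.60 (Bub1), -0.78 (Mki67) and -0.90 (Top2a). For CD11b+ cells minus GMP they were 0.10 (Ccnb1), 0.073 (Cdk1) and 0.23 (Top2a). For CMP minus MPP they were 0.44 (Birc5) and 0.46 (Top2a), for MPP minus ST-HSC -0.089 (Bub1) and -0.80 (Mki67), and for B220+ cells minus CLP -0.10 (Ccna2). The members higher then numbered 5 in B220+ cells minus BM, 1 in B220+ cells minus CLP, 6 in CD11b+ cells minus GMP, 8 in CLP minus MPP, 4 in CMP minus MPP, 2 in GMP minus CMP and 2 in ST-HSC minus LT-HSC. The members lower numbered 4 in B220+ cells minus BM, 3 in CD11b+ cells minus GMP, 1 in CLP minus MPP, 8 in GMP minus CMP, 4 in MEP minus CMP and 2 in MPP minus ST-HSC. Of all genes that passed, 63.6% were then higher in CD11b+ cells minus GMP, 44.6% in B220+ cells minus CLP and 49.9% in ST-HSC minus LT-HSC. For the other comparisons named here this share is given above.

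With the GC and length trend removed, the values that turned were -0.022 (Bub1), -0.12 (Ccnb1) and -0.15 (Plk1) for CD11b+ cells minus BM, -0.14 (Bub1) for CD11b+ cells minus GMP, -0.095 (Bub1) and -0.11 (Mki67) for CMP minus MPP, 0.23 (Bub1) and 0.83 (Top2a) for GMP minus CMP, 0.31 (Cdk1) and -0.017 (Ube2c) for B220+ cells minus CLP, 0.016 (Plk1) and -0.23 (Top2a) for CLP minus MPP, and -0.33 (Top2a) for MEP minus GMP. The members higher numbered 0 in CD11b+ cells minus BM, 1 in CLP minus MPP, 0 in CMP minus MPP and 2 in ST-HSC minus LT-HSC, and the members lower 1 in GMP minus CMP and 2 in MEP minus GMP. Of all genes that passed, 44.1% were higher in CD11b+ cells minus BM, 45.2% in CLP minus MPP and 42.0% in CMP minus MPP. The share was 48.7% in ST-HSC minus LT-HSC, 48.1% in GMP minus CMP and 49.7% in MEP minus GMP. Beside the count of 0 in CMP minus MPP, all 10 members had a negative value. Mki67 relative to the other members in CLP was 2.37, against 3.63 as scaled and 3.32 with the mean of the other 9 in place of their median.

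Plk1 in ST-HSC minus LT-HSC and Top2a in MEP minus CMP, neither of which passed the threshold, and Top2a in CD11b+ cells minus GMP were -0.013, -0.016 and 0.0075 with DESeq2 and -0.013, -0.017 and 0.0054 with RLE factors. Cdk1 in B220+ cells minus CLP was 0.0043 with no filter and 0.032 with only the populations compared, where Birc5 in CLP minus MPP was -0.078, Bub1 and Ccnb1 in CD11b+ cells minus BM -0.031 and -0.060, Top2a in MEP minus CMP -0.023, and 2 members were higher in ST-HSC minus LT-HSC. With a library left out, Top2a in MEP minus CMP ran from -0.032 to 0.031, and the members higher in ST-HSC minus LT-HSC numbered 1 to 2, the latter without ST-HSC replicate 1. With the replicate number as a block no member count changed (10 members higher in MPP minus ST-HSC). The block was not used because in 0 of the 13 comparisons did every pair of libraries with the same number correlate over 0.1. Depth was ample for the members, and replicates that may be technical limit what the errors cover.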

Other observations

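The gene groups around the members also varied in ways the comparisons above do not cover. In CLP, single genes of several lists were far above their level elsewhere, while others of the cell cycle transcription list were not: Lin37 was at 18.2 ± 0.15 CPM, against 24.1 ± 1.08 in MPP, and Lin52 at 15.3 ± 1.32, against 23.3 ± 0.54. Foxm1 was at 204 ± 5.74 CPM in CLP (SD, n = 3), against 9.57 to 36.0 CPM in the other 10 populations. E2f1, a transcription factor of the transition to DNA synthesis whose gene was picked after its values were seen, was at 74.2 ± 2.33 CPM in CLP and 8.06 to 33.2 elsewhere. Cdc25a was at 94.8 ± 3.59 CPM and 10.5 to 28.5 elsewhere, and Ube2s at 155 ± 8.70 CPM and 5.98 to 26.6 elsewhere. Mybl2 was higher in MEP, at 169 ± 6.46 CPM, than in CLP, at 97.2 ± 5.36. No test over populations was made of these levels, which describe 3 libraries each.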
